A study of Mus musculus with 16 samples.

Results

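The immediate early and stress genes described here are the 10 genes Fos, Fosb, Jun, Junb, Jund, Egr1, Atf3, Ier2, Hspa1a and Hspa1b, chosen by name and found in both count tables among 1536 wells of single cells. Their levels were read in the 1240 wells with at least 10000 UMIs (unique molecular identifiers, each standing for 1 counted molecule), by library, age and cell class. The wells came from mouse dorsal root ganglia (DRG), the clusters of sensory neuron cell bodies beside the spinal cord, at embryonic day (e) 15.5 and postnatal day (p) 1. The 10 e15.5 libraries carried PvtdTom, a transgene that drives the red protein tdTomato from the parvalbumin promoter, and were sorted by fluorescence. The label of each of the 6 p1 libraries names both Trpv1Cre; PvFlp; Ai65 and PvCre; Ai14, so which of these mice gave which p1 library is unknown here. In the first of these lines tdTomato needs both recombinases, and in the second the parvalbumin recombinase alone. All cells were released with collagenase and then trypsin at a warm temperature and by trituration, with a longer collagenase step at p1, where the study's methods describe picking tdTomato+ cells by hand although the labels give sorting. Age, digestion time, way of isolation and mouse line therefore changed together and cannot be told apart, and activity, injury and dissociation responses cannot be separated by age alone.

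Immediate early genes are transcribed within minutes of a stimulus from factors already present in the cell, with no new protein needed. Fos and Fosb pair with Jun, Junb or Jund to form AP-1, a transcription factor that binds DNA as a dimer. Egr1 is a zinc finger transcription factor, Ier2 a short-lived nuclear protein, and Atf3 a stress-induced member of the ATF/CREB family that marks sensory neurons after axon injury. Hspa1a and Hspa1b code for the inducible HSP70 chaperone and are switched on by heat shock factor 1 when proteins misfold. In sensory neurons Jun and Atf3 are classic genes of the response to a cut axon, while Fos and Egr1 follow depolarization. Enzymatic dissociation of fresh tissue is known to raise many of these genes.

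The sequences before the start sites are shown because the heat shock pair, counted as separate genes, is nearly identical there, with Jun and Fos as the AP-1 pair whose values are described most. The lines below give the 150 bases before the RefSeq start (GRCm38.p6, 5′ to 3′ on the gene's strand) of the heat shock pair, of Jun and of Fos. Capitals mark a heat shock element, searched as GAANNTTC or TTCNNGAA on either strand, or a TATA box, searched as TATAAA on the gene's strand.
Hspa1a, chr17:34972157-34972306, minus strand: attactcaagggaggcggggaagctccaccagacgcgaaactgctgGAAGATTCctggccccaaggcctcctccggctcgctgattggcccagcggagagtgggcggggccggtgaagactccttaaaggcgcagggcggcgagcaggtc
Hspa1b, chr17:34959239-34959388, minus strand: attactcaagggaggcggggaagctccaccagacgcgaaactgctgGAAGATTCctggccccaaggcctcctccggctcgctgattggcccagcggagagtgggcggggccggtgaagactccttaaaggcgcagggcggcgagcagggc
Jun, chr4:95052223-95052372, minus strand: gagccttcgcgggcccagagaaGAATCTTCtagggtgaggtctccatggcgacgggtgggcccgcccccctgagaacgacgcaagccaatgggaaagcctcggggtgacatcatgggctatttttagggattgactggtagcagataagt
Fos, chr12:85473740-85473889, plus strand: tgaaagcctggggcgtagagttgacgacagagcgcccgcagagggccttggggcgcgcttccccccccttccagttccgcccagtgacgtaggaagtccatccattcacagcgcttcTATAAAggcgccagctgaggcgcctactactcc

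RefSeq windows of 300 bases around the start matched 8 of the 10 genes by symbol, with no entry for Egr1 and Ier2. The Jund window (chromosome 8, 70697489 to 70697788, plus strand) ends before the GENCODE start of Jund at 70698949. The counts below thus say nothing about the bases next to that start. A heat shock element lay in the windows of 3 of these 8 genes, Jun, Hspa1a and Hspa1b, against 15.1% of 32851 windows in the table. A TATAAA lay in 2 of 8, Fos and Junb, against 8.32% of windows. In Junb it began at the RefSeq start, which lies upstream of the GENCODE start at 84978718 (chromosome 8, minus strand). The cAMP response element TGACGTCA (1.79% of windows), the AP-1 site TGACTCA (5.20%) and the serum response element (1.63%) were in none of the 8, which says only that these exact letters are not in this window.

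The Hspa1a and Hspa1b stretches printed above are the same at 149 of 150 positions. Their GENCODE M21 transcripts (2967 and 2803 bases) aligned over 2200 bases at 99.1% identity, while the last 300 bases of the Hspa1a transcript found no match in Hspa1b. CEL-Seq2 counts molecules from their 3′ ends, where the annotated ends of the copies thus differ, while a read within the shared stretch could come from either. How many reads lay in each stretch is unknown here, so the counts of the copies are given as uncertain. On GRCm38, Hspa1a lies at chromosome 17, 34969190 to 34972156, and Hspa1b at 34956436 to 34959238, both on the minus strand. Fos lies on chromosome 12, 85473890 to 85477273, and Jun on chromosome 4, 95049034 to 95052222. All 10 are protein-coding genes.

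Library totals ran from 3701900 to 9299431 UMIs at e15.5 and from 386517 to 8814472 at p1, and 871 of 960 and 369 of 576 wells passed the limit of 10000 UMIs. p1 replicate 3 stood apart with 12 of its 96 wells kept, and mitochondrial genes took a median of 4.35 to 5.98% of UMIs per library at e15.5 and 8.85 to 13.1% at p1. Wells were put in classes by marker genes alone. Proprioceptor-like wells (305 at e15.5, 263 at p1) held sensory neuron transcripts and at least 3 of Pvalb, Runx3, Etv1 and Ntrk3. Other sensory neuron wells (68 at e15.5) held fewer of these. Neuron wells with glial transcripts (51 at e15.5, 90 at p1) were proprioceptor-like with at least 200 CPM (counts scaled to 1000000 per sum) of glia markers. Connective-like wells (383 at e15.5) were led by collagen and other fibroblast genes, and are no neurons although the labels call every sample proprioceptive sensory neurons. At p1 there were 2 connective-like wells and 1 other sensory neuron well, and 64 and 13 wells fell in no class. UMIs were summed per library and class, sums of fewer than 5 wells were left out, and libraries are the replicates. Whether the labels' libraries came from separate animals is not stated, so p-values measure the spread between libraries, which may be technical.

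In connective-like wells all 10 genes were higher in the fit than in proprioceptor-like wells of the same sort at e15.5. Fos ran from 2280 to 3880 CPM (median 3044, 9 libraries) in connective-like sums and from 27.6 to 149 CPM (median 59.5, 10 libraries) in proprioceptor-like sums, and the ranges did not overlap. Egr1 ran from 2663 to 4051 CPM (median 3419) against 16.5 to 82.2 CPM (median 33.5), again with no overlap. These were 45.0-fold and 84.8-fold differences in the fit, log2 fold changes of 5.49 (SE 0.27) and 6.41 (SE 0.28), with adjusted p = 7.43e-15 and 1.66e-15 (quasi-likelihood test of edgeR, adjusted by Benjamini-Hochberg).

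**Figure D1:**
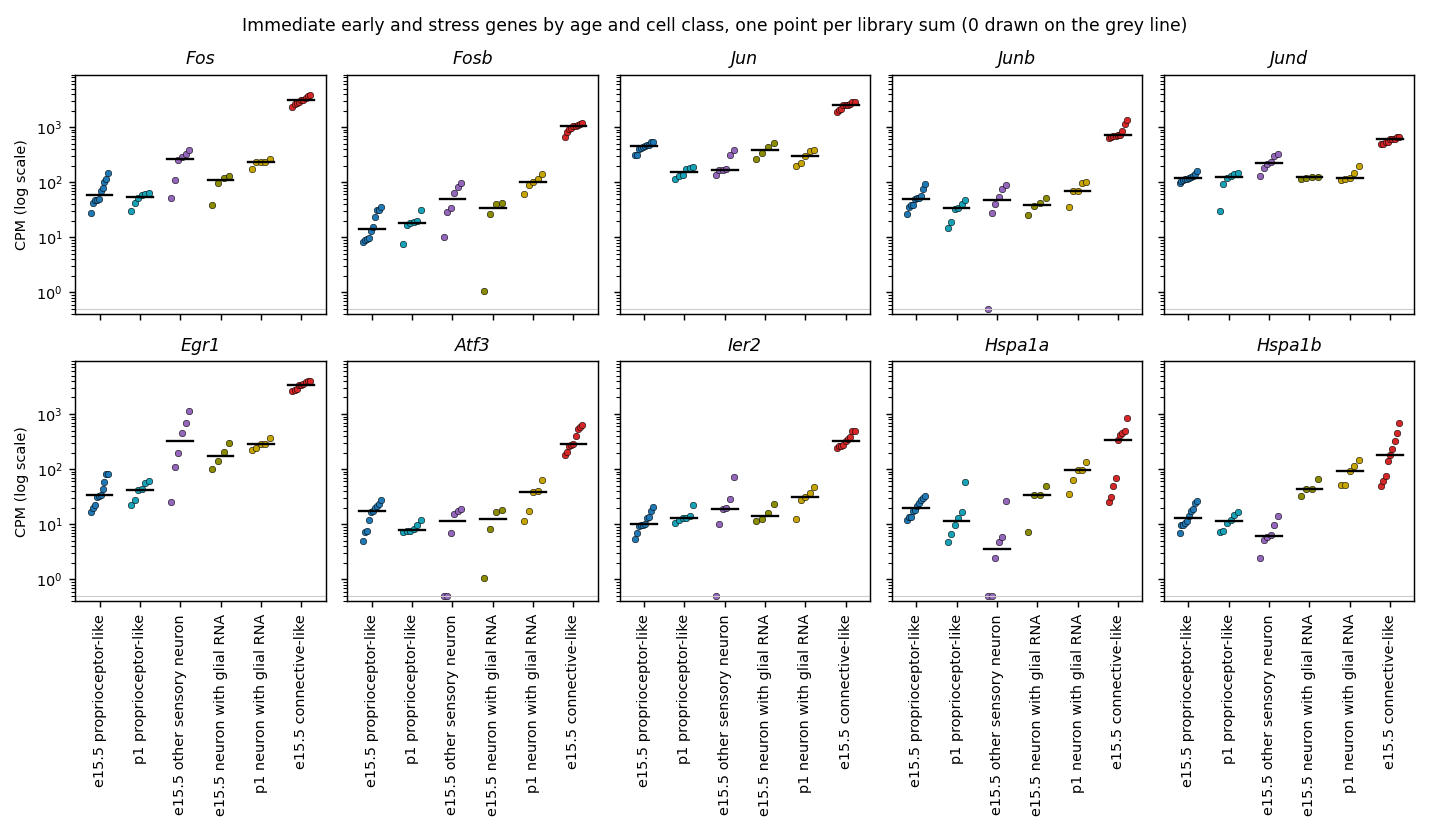
CPM of each of the 10 genes (vertical axis, log scale) in library sums of 6 combinations of age and cell class (horizontal axis), a point per library and a bar at the median, with sums at 0 drawn on the grey line. The 9 connective-like sums of Fos sit between 2280 and 3880 CPM, above every neuron sum, while the p1 and e15.5 proprioceptor-like sums overlap for every gene but Jun.

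All 10 genes were past the adjusted threshold of 0.05 in the connective-like direction, where 39.3% of 12092 genes tested were called higher (80% in either direction). Among the AP-1 subunits, Fosb had a log2 fold change of 5.85 (SE 0.26), Junb of 4.07 (SE 0.20), Jun of 2.58 (SE 0.12) and Jund of 2.33 (SE 0.09). Jun and Jund had the smallest folds of the 10, 5.98 and 5.03. Their medians were 448 and 118 CPM in proprioceptor-like sums against 2536 and 596 CPM in connective-like ones. Ier2 reached a log2 fold change of 4.97 (SE 0.19) and Atf3 of 4.63 (SE 0.30). For 9 of the 10 genes no connective-like sum fell within the range of the proprioceptor-like sums. How many of the 12092 genes tested also had separate ranges was not counted, so this cannot be read as particular to the members. The exception among the 10 was Hspa1a. Its log2 fold change of 4.04 (SE 0.52) was carried mostly by replicates 1 to 5, at 335 to 837 CPM in connective-like against 13.4 to 27.0 CPM in proprioceptor-like sums. In replicates 6, 7, 8 and 10 it was 67.7, 49.8, 30.8 and 25.1 CPM against 21.8, 32.6, 29.4 and 23.9 CPM, nearly equal in the last pair of libraries. Every one of the 25 alternative settings kept all 10 calls.

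The same direction held in the other immediate early genes of a list of 26, all 23 of which were tested and called higher, with a median log2 fold change of 3.76 against -0.02 over all genes and 4.43 over the 10. The largest were Egr2 at 8.60, a relative of Egr1, Ccn1 at 8.13 and Ccn2 at 7.51, secreted matricellular proteins, and Klf2 at 7.55, a zinc finger factor. Of 15 heat shock and chaperone genes 7 were higher and 4 lower (median 0.15), among them Dnajb1 at 2.58, an HSP40 partner of HSP70, and Hspb8 at -2.57, a small heat shock protein. Of 7 integrated stress response genes tested, 6 were higher, led by Ppp1r15a at 3.88, a phosphatase subunit, and 1 was lower, Asns at -3.09, asparagine synthetase (median 1.13). Of 9 axon injury genes tested 4 were higher and 4 lower (median 0.12), of 5 neuronal activity genes 2 were higher and 1 lower (median 0.19), and of 15 AP-1 and CREB partners and kinases 6 were higher and 8 lower (median -0.48).

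Thinning every well to 10000 UMIs gave the share of wells with the gene at 1 depth. A Fos UMI was found in 97.1% of 383 connective-like wells and 34.4% of 305 proprioceptor-like wells at e15.5 (98.7% and 82.0% before thinning, at median depths of 28402 and 115745 UMIs). Egr1 was found in 97.7% and 24.9%, Fosb in 93.5% and 15.4%, and Ier2 in 80.7% and 12.5% of thinned wells. Jun was found in 99.2% and 90.8% and Jund in 96.9% and 72.8%. The AP-1 partners Jun and Jund were thus read in most e15.5 proprioceptor-like wells at this depth, and Fos, Fosb and Egr1 in a minority of them. In thinned other sensory neuron wells at e15.5 the shares were 51.5% for Fos, 70.6% for Egr1 and 32.4% for Fosb. In thinned e15.5 neuron wells with glial transcripts they were 56.9%, 58.8% and 33.3%.

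**Figure D2:**
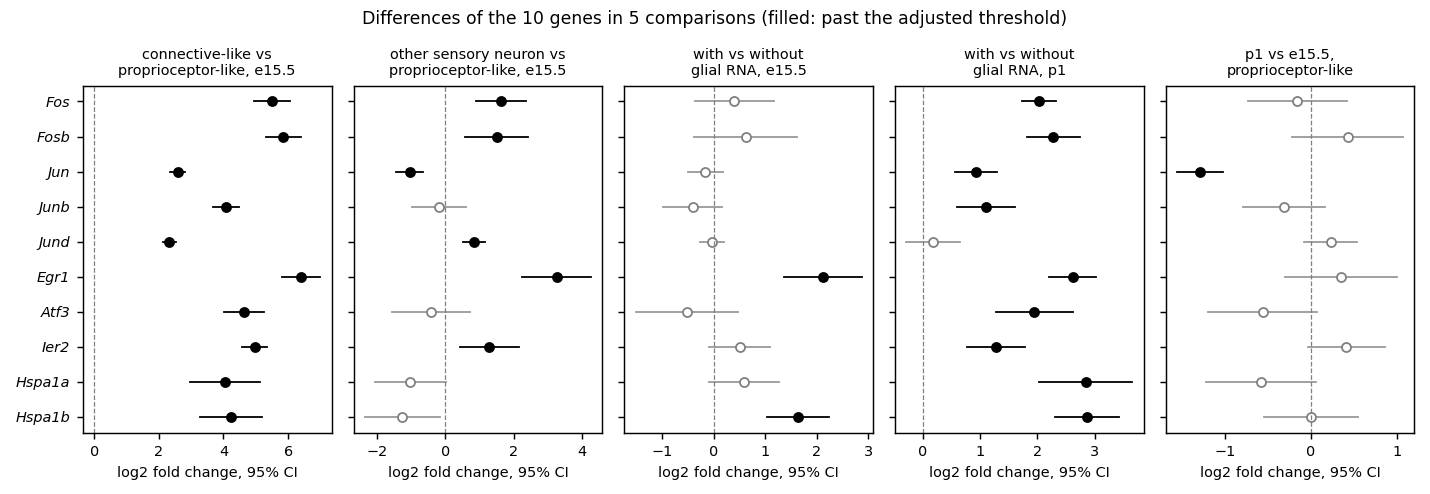
Log2 fold change (horizontal axis) of the 10 genes (vertical axis) in 5 comparisons, with 95% confidence intervals from edgeR and filled points past the adjusted threshold. All 10 points lie right of 0 for connective-like wells, 9 are filled for p1 neuron wells with glial transcripts, and Jun alone is filled between the ages.

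Connective transcripts were also found inside neuron wells. The 6 connective markers (Col1a1, Col1a2, Col3a1, Lum, Postn and Dcn) summed to 15.2 to 258 CPM (median 153, 6 of 6 found) in e15.5 proprioceptor-like sums, against 25035 to 41994 CPM in connective-like sums. If all of that RNA carried the member genes at the connective-like level of the same library, it would amount to 0.0522 to 0.953% of the UMIs (median 0.505%, 9 libraries). It would then equal a median of 44.6% of the measured Egr1 (12.8 to 73.4%) in the proprioceptor-like sums. For Fosb the median was 16.4% (6.31 to 69.7%) and for Fos 15.3% (3.44 to 48.4%). For Ier2 it was 11.9% (2.79 to 36.3%) and for Atf3 8.43% (2.66 to 39.8%). For Jun such RNA would equal a median of 2.72% (0.421 to 3.93%) and for Jund 2.08% (0.255 to 4.25%). For Hspa1a it would equal 5.01% (0.0549 to 29.6%) and for Hspa1b 4.36% (0.395 to 46.1%). The part of such RNA in the neuron levels was not tested beyond the counts given for wells low in connective markers.

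The levels of Fos, Egr1 and Fosb differed more between e15.5 proprioceptor-like libraries than those of most genes. Beyond counting error, the fitted spread (biological coefficient of variation) was 43.4% for Egr1 (above that of 99.6% of genes, relative to the trend with level), 43.2% for Fosb, 39.9% for Fos and 39.1% for Atf3, against a median of 12.9% over 10879 genes. It was 33.9% for Hspa1b, 28.8% for Junb, 27.6% for Hspa1a and 23.8% for Ier2 (above 86.1% of genes relative to the trend). It was lowest for Jun at 15.9% (above 84.1%) and Jund at 12.8% (above 64.4%). Replicate 2 was highest for Fos, at 149 CPM, followed by replicate 7 at 117 and replicate 1 at 100.5 CPM, and replicate 3 was lowest at 27.6 CPM. Egr1 was also highest in replicates 2 and 1, at 82.2 and 81.9 CPM. At p1 the spread was 16.7% for Fos, 24.4% for Egr1 and 22.04% for Fosb, against a median of 18.1%, and was largest for Hspa1a at 40.7%. For Hspa1a, p1 replicate 3 held 59.6 CPM from 8 UMIs in 8 wells, with the next sum at 16.5 CPM.

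Over the 10 e15.5 proprioceptor-like libraries the log2 levels of Fos and Egr1 had a Pearson r of 0.88, Fos and Fosb of 0.84, Junb and Egr1 of 0.94, and Hspa1a and Hspa1b of 0.63. Hspa1b went against Egr1 (r = -0.80) and Jund (r = -0.81). These are descriptions over 10 points that also share their depth and their content of connective RNA. The genes with the highest r with the mean of the members were Fbxo22 (0.95), B3gat3 (0.95), Mfsd10 (0.93), Commd8 (0.91), Esrra (0.91), Taok3 (0.90), Cadm4 (0.90), Madd (0.90), Mtx3 (0.90) and Nr4a1 (0.89), taken from 10869 genes. Over the 6 p1 libraries Nr4a1, an orphan nuclear receptor and immediate early gene, had an r of 0.92 and Fbxo22 of -0.83. B3gat3 (0.54), Cadm4 (0.53), Esrra (0.46), Taok3 (0.11), Madd (0.11) and Mtx3 (-0.18) lay between, and Mfsd10 and Commd8 were not measured well enough for a value. The members' own r with their p1 mean ran from -0.69 (Ier2) to 0.98 (Hspa1b), so that mean follows no course shared by all of them.

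Between the ages, Jun was lower in p1 proprioceptor-like wells, and the other 9 genes did not pass the threshold. Jun ran from 314 to 538 CPM (median 448) in the 10 e15.5 sums and from 116 to 186 CPM (median 156) in the 6 p1 sums, with no overlap. The fold was 2.44 lower at p1 (log2 fold change -1.29, SE 0.13, edgeR quasi-likelihood test, Benjamini-Hochberg adjusted p = 5.21e-08). Between these groups 61.7% of 13054 genes were called, 31.7% as lower and 30% as higher at p1, so a call for 1 of 10 genes is below that background. After thinning, Jun was found in 90.8% of e15.5 and 66.5% of p1 proprioceptor-like wells.

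The Fos sums overlapped between the ages, at 27.6 to 149 CPM (median 59.5) and 29.8 to 62.7 CPM (median 55.0), with a log2 difference of -0.16 (95% interval -0.74 to 0.42). Egr1 overlapped at 16.5 to 82.2 CPM and 22.4 to 60.5 CPM (0.35, -0.30 to 1.01), and Fosb at 8.18 to 35.3 and 7.45 to 31.1 CPM (0.43, -0.22 to 1.08). Atf3 (-0.56), Hspa1a (-0.58), Junb (-0.31), Jund (0.23), Ier2 (0.41) and Hspa1b (0.00) also missed the threshold, with sums that overlapped. These intervals allow changes of up to about 1 log2 unit for several of the genes.

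This count rested on settings, and the share of all genes called was counted for the reported fit alone, at 61.7%. The connective markers summed to 13.5 to 59.6 CPM (median 29.1, 5 of 6 found, Lum at 0) in p1 proprioceptor-like sums. At e15.5 they summed to 15.2 to 258 CPM (median 153), and the ranges overlapped. In proprioceptor-like wells with under 100 CPM of connective markers (166 wells in 5 e15.5 sums, 236 wells in 6 p1 sums), 3 genes were higher at p1, Fosb at 0.97, Egr1 at 0.83 and Ier2 at 0.65, and Jun was lower at -1.08 on the log2 scale. In these wells Fosb ran from 8.54 to 17.8 CPM (median 10.8) at e15.5 and from 10.003 to 28.4 CPM (median 17.3) at p1, and Egr1 from 16.5 to 42.1 and from 0 to 56.4 CPM, so the sums of both overlapped. Without TMM scaling 4 genes were lower and none higher, with Junb at -0.56, Atf3 at -0.81 and Hspa1a at -0.83 joining Jun, where the median of all genes also moved from -0.03 to -0.28. Without p1 replicate 3, whose sum held 8 wells, 3 genes passed, Jund at 0.30, Hspa1a at -0.71 and Jun, and 2 passed without e15.5 replicate 6, 7 or 10 in turn. Ier2 joined Jun without replicates 6 and 7, at 0.50 each time, and Atf3 without replicate 10, at -0.66.

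The genes around the members moved in both directions between the ages. Of 9 neuronal activity genes tested 6 were higher at p1 and 0 lower (median 0.71 against -0.03 over all genes), with Bdnf, a neurotrophin, at 1.39, Gadd45b at 1.34 and Nptx2 at 0.97. Of 15 heat shock and chaperone genes 8 were higher and 7 lower (median 0.36), Bag3, a co-chaperone, at 1.997 and Hsf1, the heat shock factor itself, at -1.43. Of 9 axon injury genes 1 was higher, Lmo7 at 4.80, and 6 lower (median -0.93), among them the neuropeptide gene Gal at -3.45 and the transcription factor gene Sox11 at -1.84. Other immediate early genes split 4 higher and 4 lower of 21 (median 0.13), with Nr4a3 at 1.53 and Ier3 at -1.36. Of 8 integrated stress response genes 1 was higher and 3 lower (median 0.02), and of 15 AP-1 and CREB partners and kinases 4 were higher and 4 lower (median 0.10), with Jdp2, a Jun dimerization partner, at 1.01.

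Other sensory neuron wells at e15.5 had more Egr1 and Fos and less Jun than proprioceptor-like wells. The 6 other sensory neuron sums came from replicates 1 to 5 and 10, and the proprioceptor-like sums from all 10 libraries. Egr1 ran from 25.4 to 1130 CPM (median 325) in the 6 sums and from 16.5 to 82.2 CPM in the 10 proprioceptor-like sums. Jun ran from 137 to 384 CPM (median 169) against 314 to 538 CPM. Both pairs of ranges overlapped, as did those of every member. The other sensory neuron wells were shallower, at a median of 20919.5 UMIs against 115745 in proprioceptor-like wells. Their class rests on markers not found, which is more likely in a shallow well. The 4 proprioceptor markers summed to 164 to 502 CPM in their 6 sums, against 3753 to 4621 CPM in proprioceptor-like sums. Of the 10 genes 5 were higher, Egr1 at a log2 fold change of 3.26 (SE 0.48), Fos at 1.63 (SE 0.35), Fosb at 1.499 (SE 0.44), Ier2 at 1.29 (SE 0.41) and Jund at 0.84 (SE 0.15), and Jun was lower at -1.04 (SE 0.19). The adjusted p for Egr1 was 2.16e-05 and for Jun 0.000181 (quasi-likelihood test of edgeR, Benjamini-Hochberg), and 38.4% of 11193 genes were called in this comparison, 18.9% as higher and 19.5% as lower. With the library as a block, which pairs the sums of a preparation, 5 of these 6 genes passed and Ier2 did not, at 1.32 with adjusted p = 0.0578 by edgeR.

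The connective markers had a higher median in the other sensory neuron sums than in the proprioceptor-like sums. They summed to 61.1 to 537 CPM (median 295, 6 of 6 found) in other sensory neuron sums. Proprioceptor-like sums held 15.2 to 258 CPM (median 153), and the ranges overlapped. Carried over at the connective-like level, such RNA would equal a median of 12.0% of the measured Fos and 11.7% of the measured Egr1 in other sensory neuron sums. With a neuron to connective ratio of at least 10 instead of 3, which left 31 wells in 4 sums, 3 genes passed, Egr1 at 2.32, Jund at 0.58 and Jun at -1.20. In the wells with under 100 CPM of connective markers, the arm was 1 sum of 5 wells (141221 UMIs), assumed to vary like the others. It held 19 UMIs of Jun, which passed at -1.63, 5 of Egr1 (0.17), 9 of Fos (-0.17), 1 of Fosb and 0 of Ier2, so a missed call there says nothing about the latter genes. Without replicate 1, Fosb and Ier2 missed the threshold (1.23 and 0.52), and without replicates 2 and 3 in turn Hspa1b (-1.49) and Hspa1a (-3.06) passed it. The share of all genes called under these settings was not counted. The part of the carried RNA in these differences was not tested beyond the counts given here.

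The other gene lists gave no single direction in these wells. Of 14 heat shock and chaperone genes tested 0 were higher and 8 lower (median -0.42 against 0.01 over all genes), Hspb8 at -2.14 and Bag3 at -1.89 among them. Of 16 other immediate early genes 3 were higher, Ier5 at 3.78, Btg1 at 2.69 and Nr4a1 at 1.503, and 1 was lower, Fosl2 at -2.06 (median 0.33). Integrated stress response genes gave 4 higher and 2 lower of 8 (median 0.80), axon injury genes 4 and 1 of 8 (median 0.64), neuronal activity genes 2 and 1 of 6 (median 0.49), and AP-1 and CREB partners and kinases 5 and 2 of 15 (median 0.14).

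In p1 neuron wells with glial transcripts 9 of the 10 genes were higher than in p1 proprioceptor-like wells. Fos was 268, 229, 230, 173 and 231 CPM in replicates 1, 2, 4, 5 and 6, and 29.8 to 62.7 CPM (median 55.0) in the 6 sums without glial transcripts, with no overlap. Egr1 was 369, 220, 290, 239 and 288 CPM against 22.4 to 60.5 CPM. Hspa1b was 149, 51.0, 92.9, 51.8 and 112 CPM against 7.22 to 16.5 CPM, and each of these sums also lay above the other group.

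The log2 fold changes were 2.86 (SE 0.26) for Hspa1b, 2.85 (SE 0.38) for Hspa1a, 2.62 (SE 0.19) for Egr1, 2.28 (SE 0.22) for Fosb and 2.03 (SE 0.14) for Fos. They were 1.95 (SE 0.31) for Atf3, 1.28 (SE 0.24) for Ier2, 1.10 (SE 0.24) for Junb and 0.93 (SE 0.17) for Jun. The Benjamini-Hochberg adjusted p of the edgeR quasi-likelihood test ran from 2.78e-07 for Fos to 0.0179 for Junb. Jund did not pass, at 0.19 (95% interval -0.28 to 0.66). Only 1.88% of 11885 genes were called in this comparison, each of them as higher. The ranges of the 2 groups were apart for 5 of the 10 genes, and how many of all genes tested had ranges apart was not counted.

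Of 22 other immediate early genes tested 11 were higher and 0 lower (median 1.15 against 0.00 over all genes and 1.99 over the 10), with Ccn1 at 5.13, Egr2 at 3.33, Zfp36, a protein that destabilizes messenger RNA, at 2.84, and Dusp6, a phosphatase of the ERK kinases, at 2.65. Of 15 heat shock and chaperone genes Dnajb1 alone passed, at 0.93 (median 0.08), and of 8 integrated stress response genes Ppp1r15a alone, at 1.29 (median -0.02). None of 9 neuronal activity genes (median 0.03), 8 axon injury genes (median -0.17) and 14 AP-1 and CREB partners and kinases (median -0.03) passed edgeR's test, where 1 gene of each list had an unadjusted p under 0.05 and DESeq2 called 0.

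Connective markers were also higher in these wells, at 213 to 442 CPM (median 244, 6 of 6 found) against 13.5 to 59.6 CPM in p1 proprioceptor-like sums, and glia markers, which set the class, at 461 to 1105 CPM against 13.9 to 29.1 CPM. Among p1 wells with under 100 CPM of connective markers (17 wells in 3 sums against 236 wells in 6 sums), Fos at 1.77, Fosb at 2.10 and Egr1 at 2.60 passed and the other 7 did not, with Hspa1a at 2.51 and Hspa1b at 1.37. Fos was 143 to 197 CPM in those 3 sums and 40.0 to 61.9 CPM in the 6 others. After thinning, 5 of the 6 genes that passed the low-count filter were higher. Junb missed the threshold without replicate 4 (1.02) or 6 (0.99), and Ier2 without replicate 6 (1.11). The share of all genes called under these settings was not counted.

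At e15.5 the neuron wells with glial transcripts differed in 2 of the 10 genes, where 4.81% of 12875 genes were called, 4.4% as higher. Egr1 was 138, 298, 206 and 99.0 CPM in replicates 3, 5, 9 and 10, above the 16.5 to 82.2 CPM of the 10 proprioceptor-like sums. Hspa1b was 43.1, 65.9, 43.7 and 32.7 CPM, above their 6.91 to 25.9 CPM. The log2 fold changes were 2.12 (SE 0.36) and 1.63 (SE 0.29), with adjusted p = 0.000682 and 0.000946 (edgeR, Benjamini-Hochberg). Fos did not pass, at 96.1, 132, 119 and 37.9 CPM against 27.6 to 149 CPM. Sums of at least 10 wells left replicate 9 alone (19 wells) in the glial arm, where Egr1 passed and Hspa1b did not, at a like log2 fold change of 1.67 (adjusted p = 0.104 by edgeR). After thinning Hspa1b was too low to be tested, and Egr1 alone passed, at 2.65. The connective markers summed to 163 to 303 CPM in these 4 sums and to 15.2 to 258 CPM in the others.

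Of 17 other immediate early genes tested at e15.5, Ccn1 at 4.95, Dusp6 at 1.77 and Nr4a1 at 1.76 were higher and 0 lower (median 0.09), and of 8 integrated stress response genes Ddit4 alone, at 1.01 (median 0.18). None of 15 heat shock and chaperone genes (median -0.04), 9 neuronal activity genes (median -0.20), 8 axon injury genes (median 0.07) and 15 AP-1 and CREB partners and kinases (median -0.04) passed edgeR's test. Their counts at an unadjusted p under 0.05 were 2, 2, 0 and 0, and DESeq2 called 0 in each. The difference between the ages in the effect of glial transcripts was tested as an interaction, which called 0.14% of 13585 genes, 0.0442% as higher at p1, and 1 of the 10. Jun had a log2 difference of 1.14 (SE 0.24, edgeR quasi-likelihood test, Benjamini-Hochberg adjusted p = 0.0481), and this call was lost without 14 of the 16 libraries in turn. With the library as a block it was also lost, at 0.98 with adjusted p = 0.208 by edgeR, and 0 of the 10 genes passed. Of the 10 genes 8 had an unadjusted p under 0.05 for this difference by edgeR's quasi-likelihood test. The largest of these was 0.0419 for Ier2, and 4.65% of all genes tested had a smaller one. DESeq2 called 3 of the 10, and its share over all genes was not counted.

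Within connective-like wells the counts of the immediate early genes were correlated from well to well. Over thinned wells the median Spearman rho between pairs, taken over 8 libraries, was 0.61 for Fos and Fosb, 0.58 for Fos and Egr1, 0.58 for Fos and Jun, and 0.51 for Egr1 and Ier2, each above 0 in 8 of 8 libraries. Hspa1a and Hspa1b had a rho of 0.62 with each other, and from -0.06 (Junb and Hspa1a) to 0.29 (Jun and Hspa1b) with the 8 other genes. The pairs among those 8 ran from 0.19 (Junb and Jund) to 0.61, so the ranges overlap. In all, 24 of 45 pairs were above 0.3 in connective-like wells (median 0.32), 14 of 45 in p1 neuron wells with glial transcripts (median 0.14), and 0 of 45 in proprioceptor-like wells of either age (medians 0.05 and 0.03). The thinned counts of Fos in proprioceptor-like wells are mostly 0 or 1, so low correlations there are no finding.

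**Figure D3:**
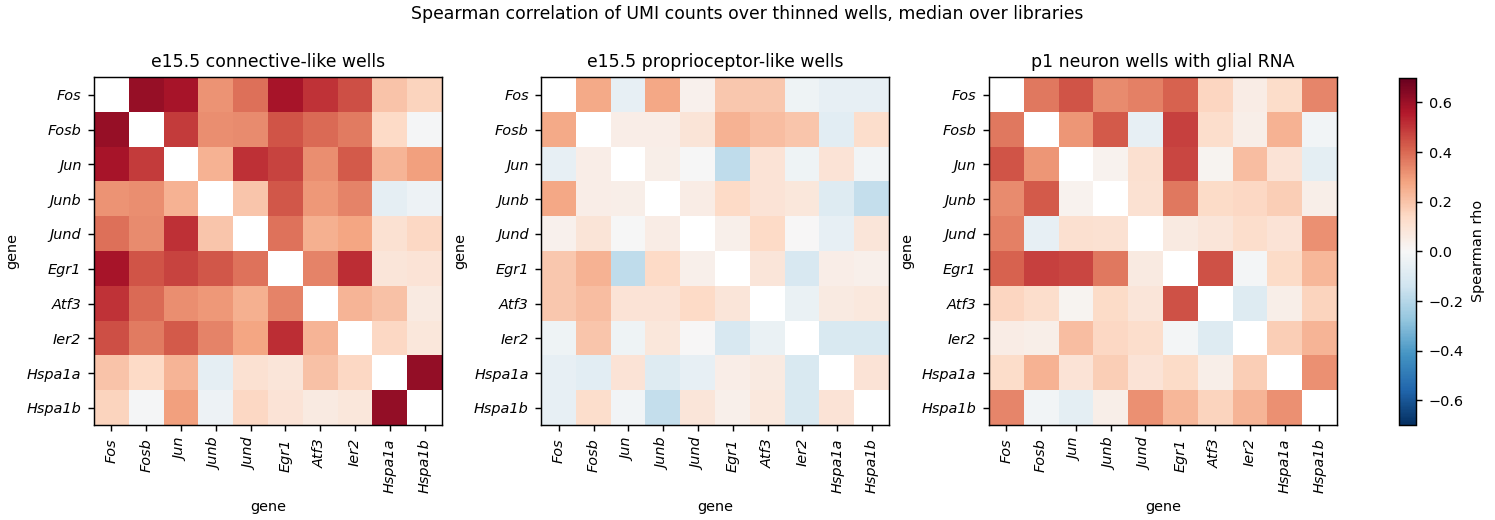
Spearman correlation (colour) between the thinned UMI counts of each pair of the 10 genes over wells, as the median over libraries, for e15.5 connective-like, e15.5 proprioceptor-like and p1 neuron wells with glial transcripts. The connective-like panel shows positive values among the 8 genes other than the heat shock pair, a rho of 0.62 between Hspa1a and Hspa1b, and -0.06 to 0.29 between these and the 8 others.

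The heat shock pair was concentrated in few connective-like wells. After thinning, the 38 wells with the most Hspa1a UMIs of 383 held 66.6% of them, and for Hspa1b 62.7%, against 21.7% for Fos and 20.6% for Egr1. Atf3 was also concentrated, with 49.8% in the top 38 wells. In proprioceptor-like wells at e15.5 the highest count was 4 UMIs for Hspa1a and 2 for Hspa1b at 10000 UMIs, and in connective-like wells 41 and 33.

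These wells came mainly from replicates 1 to 5. Hspa1a and Hspa1b together measured 661, 1529, 634, 956 and 653 CPM in the connective-like wells of e15.5 replicates 1 to 5, and 143, 111, 79.6, 128 and 167 CPM in replicates 6 to 10. Wells with at least 1000 CPM of the pair made up 25 to 35.7% of connective-like wells in the first 5 and 0 to 3.90% in the other 5, where replicates 9 and 10 had 2 and 5 such wells in all. Hoxc10, a gene of lumbar and more caudal levels, measured 9.20 to 13.5 CPM in replicates 1 to 5 and 128 to 209 CPM in replicates 6 to 10. The study's methods describe separate dissection of thoracic and lumbar ganglia. The labels do not give the level of a library, so no groups were formed and no test was made. Fos also lay higher in replicates 1 to 5 than in the others, by a smaller margin, at 3044, 3070, 3880, 3313 and 3629 CPM in replicates 1 to 5 and 2894, 2634, 2280 and 2778 CPM in replicates 6, 7, 8 and 10. In proprioceptor-like sums Hspa1b was lowest in replicate 1, at 6.91 CPM, and highest in replicate 8, at 25.9 CPM.

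**Figure D4:**
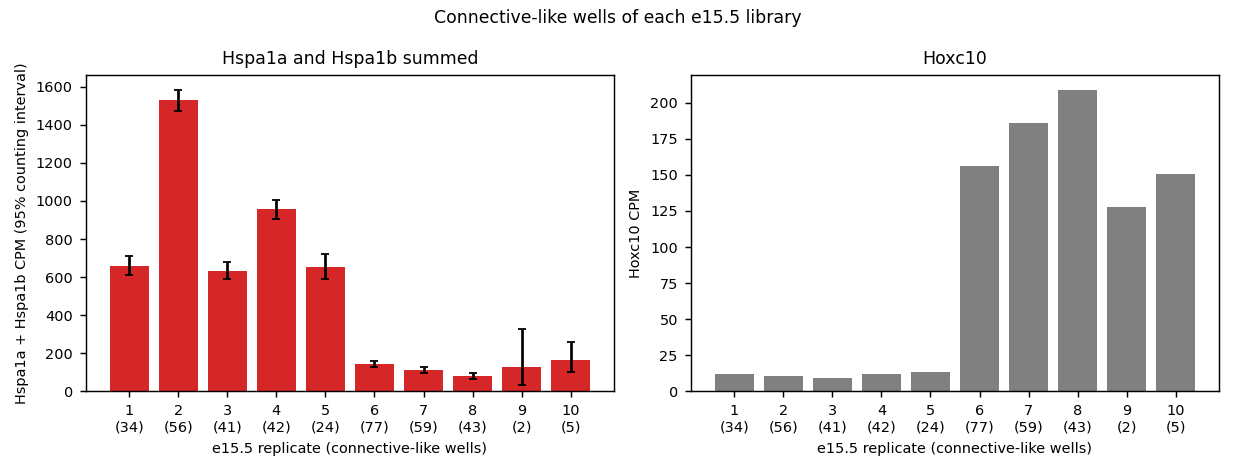
Summed CPM of Hspa1a and Hspa1b (left, with 95% counting intervals) and CPM of Hoxc10 (right) in the pooled connective-like wells of each e15.5 replicate, with the number of wells in brackets. Replicates 1 to 5 lie at 634 CPM or above for the heat shock pair and at 13.5 CPM or below for Hoxc10, and replicates 6 to 10 at 167 CPM or below and 128 CPM or above.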

How the data were processed

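UMI counts per gene and well were deposited by the authors, who demultiplexed, mapped and counted CEL-Seq2 reads from 10 e15.5 and 6 p1 libraries of 96 wells with scruff. The submitters' processing notes name mm10 and GRCm38, and no source used here gives the annotation. Every well of each plate is in the tables, the low ones included.

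Ensembl identifiers were matched to GENCODE M21 symbols. Wells with at least 10000 UMIs were classed by summed markers. A neuron needed at least 1000 CPM of sensory neuron markers and at least 3 times its connective markers, and the reverse held for connective-like wells. A glia limit of 200 CPM split neuron wells. These limits were set on marker levels alone, after those were seen, and 46 e15.5 and 9 p1 wells lay within the ratio limit. No doublet caller was run, and no wells were identical.

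UMIs were summed per library and class (at least 5 wells) and tested with edgeR 4.0.16 (TMM, filterByExpr, quasi-likelihood test, Benjamini-Hochberg over all genes tested, threshold 0.05) in R 4.3.3. All 10 members passed the low-count filter in each comparison. The tests were tried on simulated data. Intervals on a single sum are exact Poisson and cover counting error only. The members and lists were chosen by name with earlier results of these data known. All members were named, and of each list up to 4 called genes per direction with the largest fold change. Alternatives were DESeq2 1.42.0, other scaling, filters, well limits, class limits, a replicate block and leaving out each library. A neuron to connective ratio of 10 and wells under 100 CPM of connective markers were added after seeing the data. Sums of different classes share a library and so a preparation, and their deviations from the class means correlated with a median r of 0.10 for connective-like, 0.10 for other sensory neuron, 0.21 for e15.5 glial and 0.33 for p1 glial sums paired with proprioceptor-like sums.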

Additional observations from a re-analysis of the deposited data

Results flagged for a closer look

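Of 60 groups of 4 to 10 library sums (10 genes in 6 combinations of age and class), 3 held a sum farther from the others than Dixon's 95% limit allows, where chance flags about 1 in 20 groups. In p1 proprioceptor-like sums, replicate 3 was highest for Ier2 at 22.4 CPM, with the next at 14.3 CPM, and for Hspa1a at 59.6 CPM, with the next at 16.5 CPM. These values rest on 3 and 8 UMIs in a sum of 8 wells, from the library with the fewest wells kept. In e15.5 other sensory neuron sums, replicate 3 was highest for Hspa1a at 26.6 CPM (17 UMIs in 18 wells), with the next at 5.86 CPM and the lowest at 0.

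The effect of glial transcripts on Jun differed between the ages by 1.14 on the log2 scale in the test of the interaction, being 0.93 at p1 and -0.17 at e15.5. By edgeR's quasi-likelihood test 8 of the 10 genes had an unadjusted p under 0.05 for this difference, and Jun alone passed after adjustment. The largest unadjusted p of the 8 by this test was 0.0419 for Ier2, and 4.65% of all genes tested had a smaller one. With the library as a block Jun missed the threshold (0.98, adjusted p = 0.208), as it did without 14 of the 16 libraries in turn.

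Wells in no class, which enter no comparison, also held the members. Pooled Fos was 542 CPM in 64 such wells at e15.5, against 67.2 CPM in pooled proprioceptor-like wells, and 231 CPM in 13 such wells at p1, against 56.5 CPM. Egr1 was 953 and 250.5 CPM in the same wells. In these wells at e15.5 pooled blood, vessel and immune markers measured 12696 CPM, glia markers 4185 CPM and connective markers 2015 CPM, and at p1 85.9, 1474 and 4634 CPM. The medians over wells were 49.9, 3731 and 1675 CPM at e15.5 and 0, 1259 and 2714 CPM at p1. Most of the pooled blood, vessel and immune counts thus came from part of the wells. The part of these markers' cells in the levels of the members was not tested.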

How the results depend on the processing

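All 10 members remained called as higher in connective-like wells under each of 25 alternatives. The share of all genes called was counted for the reported fits alone, so the counts of members under alternatives have no such share beside them. Between the ages, 1 gene was called in the reported fit. The count was 4 without TMM scaling or in wells with under 100 CPM of connective markers, 3 with sums of at least 10 wells or wells of at least 20000 UMIs, and 2 with no low-count filter or thinned wells, and 1 to 3 with a library left out. Replicate numbers are shared between the ages in name only: deviations of same-numbered libraries correlated at -0.18 to 0.09 (median -0.08), 0 of 6 above 0.1, and with the replicate block 3 genes were called, all lower. Between classes of the same age the library block lost Ier2 in other sensory neuron wells (5 genes called in place of 6) and Jun in the interaction, and changed no other call.

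For other sensory neuron wells 6 genes were called, 3 with a ratio of 10, and 1 in wells with under 100 CPM of connective markers, where the fitted values of Fos (-0.17), Fosb (-0.88) and Ier2 (-8.11) were below 0 with adjusted p = 0.944, 0.7501 and 0.386 by edgeR's quasi-likelihood test. That setting leaves 1 sum of 5 wells with 9, 1 and 0 UMIs of these genes, too few to read a direction, and the value of Ier2 depends on the prior count. Leaving out a library gave 4 to 7. For glial transcripts at e15.5, 2 were called, and 1 with sums of at least 10 wells, which leave replicate 9 alone in that arm (Hspa1b 1.67 in place of 1.63), or with thinned wells, where Hspa1b was not tested. At p1, 9 were called, 5 in thinned wells and 3 in wells low in connective markers, and 7 to 9 with a library left out. The interaction (1 called) gave 3 with DESeq2, with no low-count filter or with the glia limit doubled. It gave 0 by edgeR without TMM scaling, with the replicate block, with sums of at least 3 or 10 wells, at 20000 UMIs, in thinned wells, with the glia limit halved or with a ratio of 10, and 0 to 2 with a library left out.

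Depth limits the heat shock pair, Fosb, Atf3 and Ier2 in neurons, whose median proprioceptor-like sums were at or under 19.9 CPM.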
